A study of Homo sapiens with 12 samples.

Results

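Aminoacyl-tRNA synthetases join each amino acid to its transfer RNA, the step that supplies ribosomes with charged tRNA. The mRNAs of 36 synthetases were followed here, out of 23273 genes in each expression table. The rule for members uses symbols alone and takes 20 cytosolic enzymes and 16 mitochondrial enzymes whose symbols end in a 2. RNA was sequenced from the mutant BRAF melanoma cell lines COLO858 and MMACSF, which were grown in DMSO or in 0.2 μM vemurafenib, an inhibitor of RAF kinase, for 24 or 48 h. Each of the 3 groups per line (DMSO, 24 h and 48 h) had 2 replicate plates, giving 12 libraries. The lines were grown in different media and seeded at different densities, the harvest time of the DMSO plates is not given in the sources used here, and both drug times were set against the same 2 DMSO libraries. Values are FPKM, a read count divided by transcript length and by the mapped total of the library, so levels of different genes within a library can be compared per unit length. Of the melanocyte lineage markers, 6 of 8 averaged at least 1 FPKM in COLO858 and 8 of 8 did in MMACSF. MLANA and TYR were the pair under that level in COLO858. Of 5 markers of other cell types, 0 reached 1 FPKM, with 0.371 FPKM as the highest value in COLO858 and 0.433 in MMACSF.

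As background, the cytosolic and mitochondrial translation systems use largely separate sets of synthetases, all encoded in the nucleus. KARS and GARS each also give rise to the mitochondrial form of their enzyme, so their class here follows the symbol and not the site of action. Several cytosolic synthetase genes are known targets of ATF4, the transcription factor of the amino acid response, and some synthetases are held together in a multisynthetase complex by scaffold proteins.

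VARS and VARS2, the valine enzymes, were listed at 0 in all 12 libraries and could not be followed. They lie in the same part of chromosome 6, at chr6:31745295-31763529 and chr6:30881982-30894236 in GRCh37. Of 44 coding genes of the tables between them, 40 were also listed at 0 in every library, among them TUBB, a tubulin, and DDX39B, an RNA helicase, which cells generally use. A listed 0 in this region was therefore not read as absence of the mRNA. The other 34 members all passed the minimum of 1 FPKM in a group mean, 19 of them cytosolic and 15 mitochondrial.

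Cytosolic synthetase mRNAs were mostly more abundant than mitochondrial ones, with some overlap. In COLO858 under DMSO the means of the 19 cytosolic members ran from 43.8 FPKM for RARS, the arginine enzyme, to 198 FPKM for GARS, the glycine enzyme, with QARS (glutamine) at 161 FPKM and KARS (lysine) at 120.3 FPKM. The 15 mitochondrial members ran from 4.29 FPKM for PARS2 (proline) to 72.3 FPKM for IARS2 (isoleucine), with TARS2 (threonine) next at 31.4 FPKM. In MMACSF the order was another one. WARS (tryptophan) led at 125 FPKM, ahead of TARS (threonine) at 120.3 FPKM and QARS at 114 FPKM, and CARS (cysteine) was lowest at 26.8 FPKM. WARS at 122 and 128 FPKM overlapped TARS at 107 and 133 FPKM, so that first place lay within the spread of the replicates. IARS2 led the mitochondrial members of MMACSF at 69.5 FPKM and PARS2 closed them at 4.32 FPKM. The tables of the lines were made separately, so levels were not tested between lines.

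The start regions of the genes were searched for TGATGNAA, letters of the C/EBP-ATF response element to which ATF4 binds, where N is any base. The search covered both strands of RefSeq windows on GRCh38.p14 that reach from 250 bases before to 50 bases after each annotated start. Of the 36 members, 30 had a window, and 8 of these held the letters, 7 of 16 cytosolic and 1 of 14 mitochondrial. Among all 27305 genes with a window 4.46% held them, and among all 35116 windows 3.62%. DARS, LARS, VARS, YARS, AARS2 and VARS2 were not matched. The 8 matches are shown because they divide the cytosolic members by a feature that the choice of members did not use. Each is given 5′ to 3′ on the strand of its gene, with the matched letters in capitals.

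AARS, chr16:70289675-70289704, minus strand: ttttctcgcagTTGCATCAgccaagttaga
CARS, chr11:3057407-3057436, minus strand: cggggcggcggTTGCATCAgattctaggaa
GARS, chr7:30594834-30594863, plus strand: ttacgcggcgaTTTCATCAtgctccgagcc
IARS, chr9:92293692-92293721, minus strand: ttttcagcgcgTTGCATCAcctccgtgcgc
MARS, chr12:57488053-57488082, plus strand: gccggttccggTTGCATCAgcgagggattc
NARS, chr18:57621804-57621833, minus strand: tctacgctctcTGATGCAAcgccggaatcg
TARS, chr5:33440956-33440985, plus strand: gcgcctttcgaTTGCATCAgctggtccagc
YARS2, chr12:32756076-32756105, minus strand: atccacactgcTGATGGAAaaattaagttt

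In 6 of the 8 the letters lay on the opposite strand of the gene, with NARS (asparagine) and YARS2 (tyrosine, mitochondrial) as the other two. The first base of the match lay 187 bases before the start in AARS (alanine), 33 in GARS, 13 in IARS (isoleucine) and 197 in YARS2. In CARS and MARS (methionine) the match spanned the start, and in NARS and TARS it began at bases 15 and 3 after it. A match describes letters in a window and not a bound site.

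In COLO858, 6 of 19 tested cytosolic synthetases fell within 24 h of vemurafenib, and 7 of 19 had fallen at 48 h. Those of 24 h were AARS, CARS, GARS, IARS, MARS and YARS (tyrosine), and KARS joined them at 48 h. Called here means an adjusted p under 0.01 by limma with Benjamini-Hochberg adjustment over the 12696 genes tested in the line, and each fold change is on the log2(FPKM + 1) scale. Of all genes tested, 5.71% were called lower and 4.11% higher at 24 h, and 4.73% lower and 4.74% higher at 48 h. Of the cytosolic members, 0 were called higher at either time. The position of each of these genes is given on GRCh37.

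GARS, on chr7:30620149-30673649, had the highest mRNA level of all members in COLO858 under DMSO. Its values were 188 and 208 FPKM in DMSO, 68.5 and 74.4 FPKM at 24 h, and 57.3 and 64.4 FPKM at 48 h. The drug-treated libraries all lay under both DMSO libraries. In bulk RNA, fewer cells with the mRNA and less of it in each cell cannot be told apart. GARS fell by 1.46 ± 0.13 (SE) on the log2 scale at 24 h (adjusted p = 0.00244) and by 1.69 ± 0.13 at 48 h (adjusted p = 0.00179). YARS, on chr1:33240838-33283632, showed the deepest fall of any member at 48 h. It stood at 88.6 and 81.9 FPKM in DMSO, at 32.9 and 29.1 FPKM at 24 h, and at 23.0 and 24.6 FPKM at 48 h. YARS fell by 1.43 ± 0.13 at 24 h (adjusted p = 0.00274) and by 1.80 ± 0.13 at 48 h (adjusted p = 0.00155).

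CARS, on chr11:3022152-3078843, had 100.9 and 93.8 FPKM in DMSO, 37.4 and 36.1 FPKM at 24 h, and 39.4 and 36.1 FPKM at 48 h. It thus reached its low level by 24 h. The fall was 1.38 ± 0.12 at 24 h (adjusted p = 0.0024) and 1.34 ± 0.12 at 48 h (adjusted p = 0.00274). IARS, on chr9:94972489-95056136, had 79.6 and 96.3 FPKM in DMSO, 31.9 and 37.4 FPKM at 24 h, and 31.5 and 37.3 FPKM at 48 h. Its libraries at 24 and 48 h overlapped and lay under both DMSO libraries. The IARS fall was 1.32 ± 0.17 at 24 h (adjusted p = 0.0064) and 1.33 ± 0.17 at 48 h (adjusted p = 0.00669).

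MARS, on chr12:57869228-57911352, charges the methionine tRNAs, the initiator among them. Its values were 97.0 and 89.5 FPKM in DMSO, 34.8 and 36.2 FPKM at 24 h, and 43.7 and 41.3 FPKM at 48 h. The fall was 1.37 ± 0.12 at 24 h (adjusted p = 0.00238) and 1.11 ± 0.12 at 48 h (adjusted p = 0.00429). MARS overlaps DDIT3, a stress response transcription factor, on the other strand, and reads of an overlap cannot be told apart where the counting ignores strand. The reads were mapped with the default settings of the aligner, and whether the counting by Cuffdiff used strand is not given in the sources used here. DDIT3 stood at 14.6 and 16.4 FPKM in DMSO and at 27.9 and 31.0 FPKM at 24 h (adjusted p = 0.0106), the opposite direction to MARS.

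AARS, on chr16:70285886-70323610, had 120.4 and 115.8 FPKM in DMSO, 55.6 and 56.3 FPKM at 24 h, and 58.1 and 55.8 FPKM at 48 h. Replicates differed little beside the gap to DMSO. The fall was 1.06 ± 0.11 at 24 h (adjusted p = 0.00367) and 1.04 ± 0.11 at 48 h (adjusted p = 0.00425). KARS, on chr16:75661372-75682541, had 115 and 126 FPKM in DMSO, 71.0 and 74.6 FPKM at 24 h, and 49.7 and 61.4 FPKM at 48 h. Its change of -0.72 ± 0.15 at 24 h did not pass (adjusted p = 0.0246), and its fall of 1.11 ± 0.15 at 48 h did (adjusted p = 0.00746).

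The calls rest on 2 libraries per group. With any 1 of the 4 compared libraries left out, 0 of the 34 members passed in COLO858. The adjusted p of the members named above then ran from 0.0172 to 0.0443 at 24 h and from 0.0144 to 0.0488 at 48 h, each still lower than in DMSO. The same step took the calls over all genes from 1247 to between 114 and 154 at 24 h. AARS, HARS, KARS, MARS, WARS, YARS and 5 mitochondrial members overlap a coding gene on the other strand, 11 of the 36 in all.

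Among the cytosolic members that were not called in COLO858, FARSB, the beta subunit of the phenylalanine enzyme, had the largest difference. It stood at 70.6 and 96.0 FPKM in DMSO, 29.4 and 37.6 FPKM at 24 h, and 29.5 and 44.03 FPKM at 48 h. Its changes of -1.28 ± 0.27 and -1.17 ± 0.27 had adjusted p of 0.0242 and 0.0315. The replicates of FARSB lay far apart, with replicate 2 above replicate 1 in all 6 groups of the 2 lines. With the replicate block FARSB was called at both times. FARSA, the alpha subunit, had 114 and 79.0 FPKM in DMSO, 66.8 and 50.8 FPKM at 24 h, and 55.0 and 40.0 FPKM at 48 h, with changes of -0.69 ± 0.27 (adjusted p = 0.117) and -1.001 ± 0.27 (adjusted p = 0.0474). EPRS, which carries the glutamate and proline activities in a single protein, had 36.8 and 52.8 FPKM in DMSO, 23.9 and 32.1 FPKM at 24 h, and 21.3 and 26.1 FPKM at 48 h. The EPRS changes were -0.65 ± 0.25 and -0.88 ± 0.25 (adjusted p = 0.113 and 0.0549). FARSA and EPRS were likewise called at both times with the replicate block.

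WARS departed from the other cytosolic members at 24 h. It stood at 49.5 and 53.5 FPKM in DMSO, 75.0 and 78.6 FPKM at 24 h, and 46.9 and 53.0 FPKM at 48 h. Both libraries of 24 h lay above those of DMSO and of 48 h. The difference from DMSO was 0.57 ± 0.13 at 24 h (adjusted p = 0.0311) and -0.04 ± 0.13 at 48 h (adjusted p = 0.838), neither past the threshold. QARS stood at 165 and 157 FPKM in DMSO, 161 and 167 FPKM at 24 h, and 129.5 and 126 FPKM at 48 h, where its change was -0.33 ± 0.11 (adjusted p = 0.0815). HARS, the histidine enzyme, stood at 58.2 and 58.7 FPKM in DMSO and between 47.6 and 48.8 FPKM in the 4 drug-treated libraries (adjusted p = 0.129 and 0.142). LARS, the leucine enzyme, stood at 49.1 and 68.2 FPKM in DMSO and at 35.6 to 55.7 FPKM in drug, with overlapping libraries at 24 h. The remaining cytosolic members of COLO858 lay between 30.2 and 64.8 FPKM for DARS (aspartate), 59.5 and 116 FPKM for NARS, 27.7 and 52.0 FPKM for RARS, 69.3 and 97.7 FPKM for SARS (serine), and 43.8 and 92.4 FPKM for TARS over the 6 libraries. At 48 h 19 of 19 tested cytosolic members had a fold change below 0, and in 17 both libraries lay under both DMSO libraries, against 31.4% of all genes. At 24 h this held for 12 of 19, against 29% of all genes. WARS was the single cytosolic member with both libraries above both of DMSO at 24 h, and there was 0 at 48 h, where 34.1% and 29.9% of all genes had that order.

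**Figure D1:**
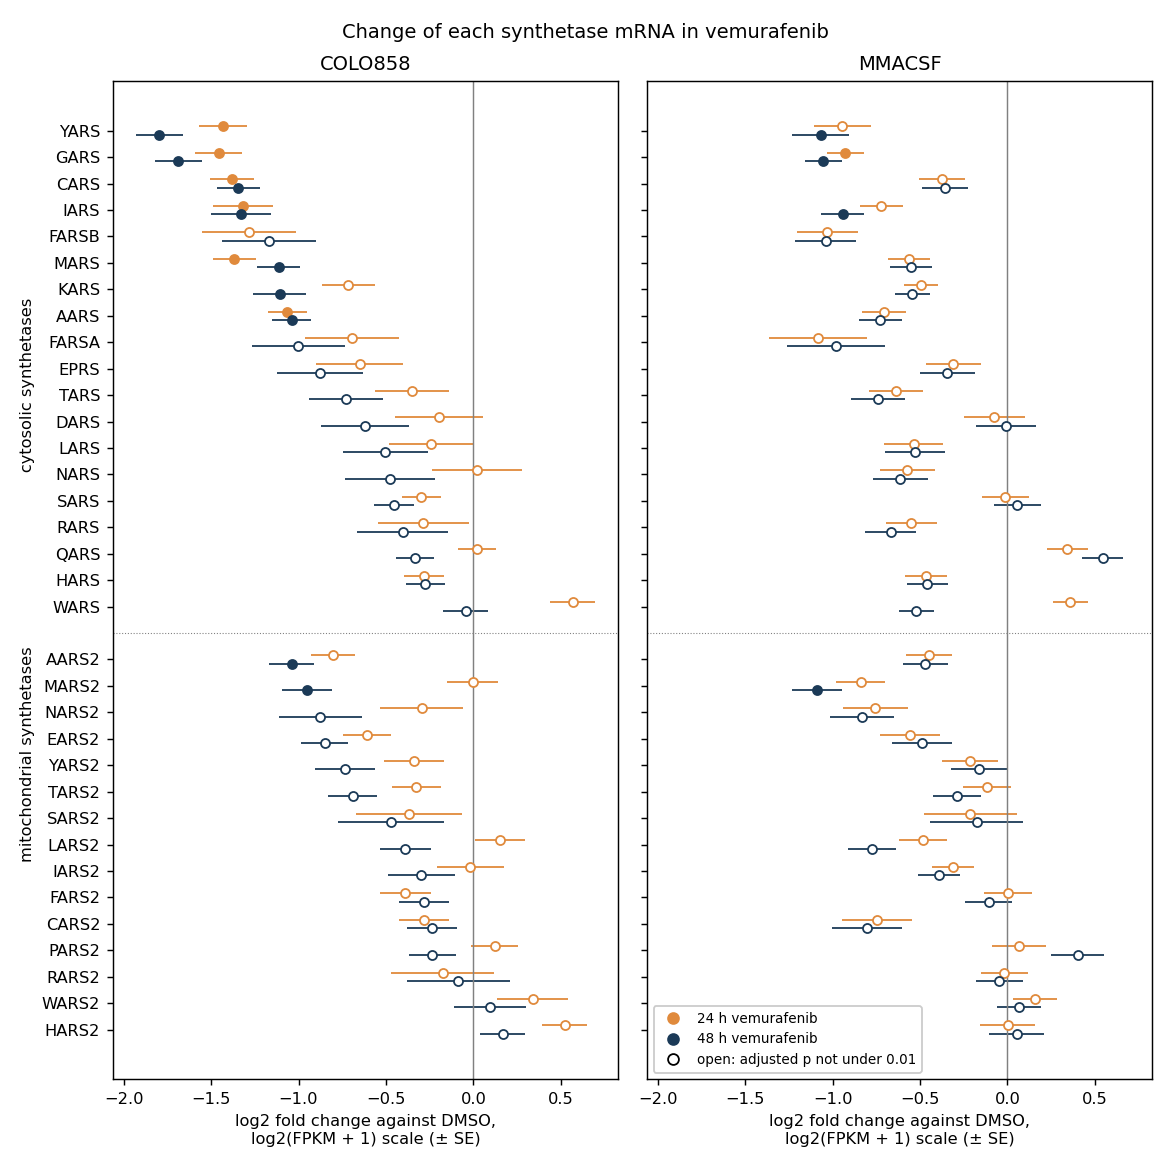
Log2 fold change of each of the 34 tested synthetases against DMSO (horizontal axis, log2(FPKM + 1) scale, bars ± SE) at 24 h (orange) and 48 h (dark blue) in COLO858 (left) and MMACSF (right), with filled points where the adjusted p was under 0.01. The filled points all lie left of 0, with 6 and 9 in COLO858 and 1 and 4 in MMACSF at 24 and 48 h.

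Of the 15 tested mitochondrial synthetases in COLO858, 0 passed at 24 h and 2 fell by 48 h, and 0 were called higher. With the replicate block 5 and 9 of the 15 were called at 24 and 48 h, HARS2 as higher at 24 h. The block called 5719 and 5549 of all 12696 genes. At 24 h limma without the block gave an unadjusted p under 0.05 for 4 of the 15. Of all 12696 genes 3275 had an adjusted p under 0.05 at 24 h, which is a stricter cutoff. AARS2, the mitochondrial alanine enzyme on chr6:44266468-44281084, stood at 19.5 and 19.3 FPKM in DMSO, 10.4 and 11.0 FPKM at 24 h, and 8.82 and 9.02 FPKM at 48 h. It was already lower in both libraries of 24 h (-0.80 ± 0.13, adjusted p = 0.0111), and it fell by 1.04 ± 0.13 at 48 h (adjusted p = 0.00564). Under median-ratio rescaling of the libraries AARS2 also passed at 24 h (adjusted p = 0.00808). MARS2, the mitochondrial methionine enzyme on chr2:198570093-198573119, had another time course. Its values were 14.2 and 15.6 FPKM in DMSO, 13.9 and 16.0 FPKM at 24 h, and 7.32 and 7.13 FPKM at 48 h. It did not move by 24 h beyond its spread (-0.004 ± 0.14, adjusted p = 0.989) and fell by 0.95 ± 0.14 at 48 h (adjusted p = 0.00999). That p lies at the threshold, and with no expression minimum it was 0.0145. Without any 1 of the 4 libraries AARS2 and MARS2 at 48 h had adjusted p from 0.041 to 0.0662.

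HARS2, the mitochondrial histidine enzyme, was the highest of the mitochondrial changes in COLO858. It stood at 22.9 and 22.5 FPKM in DMSO, 31.9 and 34.2 FPKM at 24 h, and 24.5 and 26.8 FPKM at 48 h, with differences of 0.52 ± 0.13 (adjusted p = 0.0376) and 0.17 ± 0.13 (adjusted p = 0.385). HARS and HARS2 lie head to head on chromosome 5, with starts 107 bases apart and overlapping first bases. WARS2 stood at 3.95 and 5.46 FPKM in DMSO, 5.68 and 6.66 FPKM at 24 h, and 4.46 and 5.68 FPKM at 48 h (0.34 ± 0.21 and 0.09 ± 0.21, adjusted p = 0.279 and 0.772). LARS2 stood at 13.4 and 14.5 FPKM in DMSO, 14.7 and 16.6 FPKM at 24 h, and 9.91 and 10.9 FPKM at 48 h, PARS2 at 4.16 and 4.41, 4.65 and 4.85, and 3.42 and 3.57 FPKM. Neither passed at either time, with adjusted p from 0.109 to 0.531. YARS2 stood at 12.4 and 13.0 FPKM in DMSO and at 6.23 and 8.35 FPKM at 48 h (-0.73 ± 0.17, adjusted p = 0.0333). CARS2 stood at 26.8 and 23.6 FPKM in DMSO and at 19.2 to 22.0 FPKM in drug (adjusted p = 0.209 and 0.285). IARS2 stood at 62.9 and 81.6 FPKM in DMSO and at 52.9 to 76.6 FPKM in drug, and FARS2, the mitochondrial phenylalanine enzyme, at 10.3 and 9.46 FPKM in DMSO and 6.94 to 8.33 FPKM in drug. The remaining mitochondrial members spanned 10.5 to 20.8 FPKM for EARS2 (glutamate), 4.94 to 12.9 FPKM for NARS2, 12.3 to 20.7 FPKM for RARS2, 13.8 to 27.9 FPKM for SARS2, and 17.9 to 33.1 FPKM for TARS2 over the 6 libraries. Both libraries lay under both of DMSO for 6 of 15 mitochondrial members at 24 h and 10 of 15 at 48 h, against 29% and 31.4% of all genes, and above them for 4 and 1, against 34.1% and 29.9%.

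Across both classes, the cytosolic mRNAs of COLO858 moved further down than the mitochondrial ones. The median log2 fold change of the 19 cytosolic members was -0.65 at 24 h and -0.88 at 48 h, and that of the 15 mitochondrial members was -0.28 and -0.39. The median of all genes tested was 0.06 and -0.01. The cytosolic median lay under the mitochondrial one by 0.37 at 24 h and by 0.49 at 48 h, given as a description with no test. With 1 library left out the cytosolic minus the mitochondrial median ran from -0.377 to -0.306 at 24 h and from -0.488 to -0.284 at 48 h, where the smallest gap was that without DMSO replicate 2. Mitochondrial members have lower levels, where adding 1 FPKM shrinks a log2 change more, and with a minimum of 10 FPKM the gap at 48 h was 0.298. Summed over each class, cytosolic mRNA amounted to 1662 and 1799 FPKM in DMSO, 1074 and 1168 FPKM at 24 h, and 902 and 987 FPKM at 48 h. Mitochondrial mRNA amounted to 295 and 311, 265 and 281, and 215 and 233 FPKM. The ratio of the sums went from 5.64 and 5.78 in DMSO to 4.05 and 4.15 at 24 h and 4.19 and 4.23 at 48 h, without overlap between DMSO and drug.

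**Figure D2:**
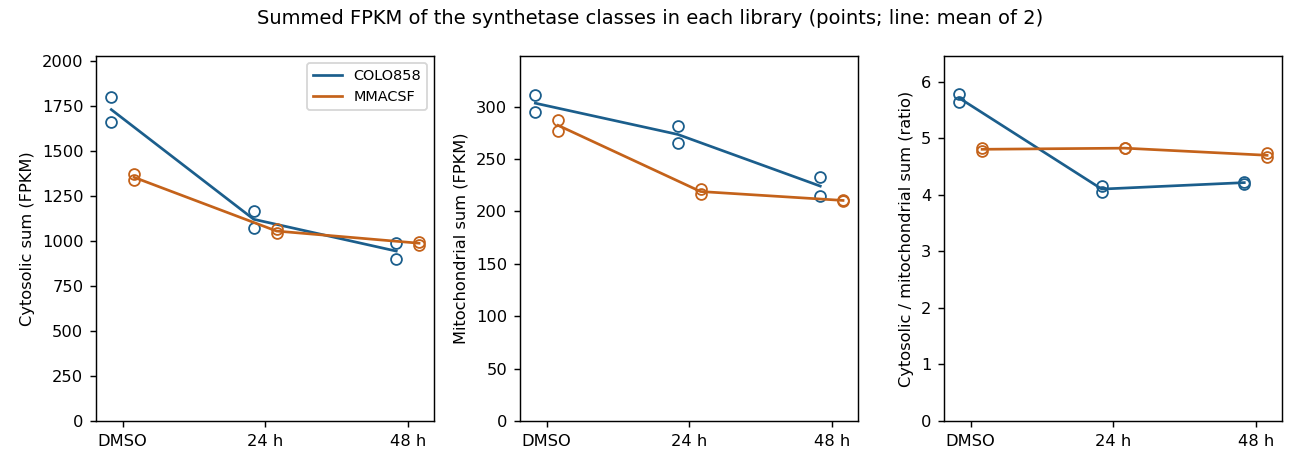
Summed FPKM of the cytosolic members (left), of the mitochondrial members (middle) and the ratio of both sums (right) in DMSO and after 24 and 48 h in vemurafenib, with each library as a point and the mean of 2 libraries as a line. In COLO858 (blue) the ratio starts at 5.64 and 5.78 and lies between 4.05 and 4.23 in drug, and in MMACSF (orange) it lies between 4.66 and 4.83 throughout.

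In MMACSF fewer members passed the threshold of 0.01 without the replicate block. GARS alone was called of 19 cytosolic members at 24 h, and GARS, IARS and YARS at 48 h, all lower. With the replicate block 15 and 16 of the 19 were called, as were 3284 and 3790 of all genes. The block called 14 and 18 of the 19 in COLO858, and 5719 and 5549 of all genes. At a threshold of 0.05, 9 and 10 cytosolic members were called in COLO858 and 10 and 13 in MMACSF. Mitochondrial members called were then 3 and 6 in COLO858 and 2 and 4 in MMACSF. Of all genes, 3275 and 3298 were called in COLO858 at that threshold and 2561 and 3038 in MMACSF. The values below are without the block unless it is named. Of the 12599 genes tested in MMACSF 3.6% were called lower and 2.22% higher at 24 h, and 5.41% and 3.42% at 48 h. GARS stood at 76.4 and 80.4 FPKM in DMSO, 40.1 and 41.5 FPKM at 24 h, and 36.1 and 38.5 FPKM at 48 h. It fell by 0.93 ± 0.11 (adjusted p = 0.00618) and by 1.05 ± 0.11 (adjusted p = 0.00348). IARS stood at 70.8 and 80.5 FPKM in DMSO, 43.7 and 47.3 FPKM at 24 h, and 37.1 and 40.5 FPKM at 48 h. Its change was -0.72 ± 0.12 at 24 h (adjusted p = 0.017) and its fall 0.94 ± 0.12 at 48 h (adjusted p = 0.00683). YARS stood at 51.3 and 45.7 FPKM in DMSO, 23.3 and 26.2 FPKM at 24 h, and 25.4 and 20.0 FPKM at 48 h. The YARS change was -0.94 ± 0.16 at 24 h (adjusted p = 0.0162) and the fall 1.07 ± 0.16 at 48 h (adjusted p = 0.00958). That last call was lost with no expression minimum (0.0134), under median-ratio rescaling (0.0115) and without the mean-variance trend (0.0118).

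Other cytosolic members of MMACSF were lower in both drug libraries without passing. AARS stood at 93.2 and 84.9 FPKM in DMSO and at 50.6 to 58.1 FPKM in drug (adjusted p = 0.0178 and 0.0138), MARS at 96.4 and 89.1 FPKM in DMSO and at 58.4 to 66.9 FPKM in drug (adjusted p = 0.0292 and 0.0261), and KARS at 104 and 105 FPKM in DMSO and at 70.8 to 74.2 FPKM in drug (adjusted p = 0.0243 and 0.0157). FARSA had the lowest fold change at 24 h, with 74.0 and 48.4 FPKM in DMSO, 32.4 and 23.8 FPKM at 24 h, and 34.9 and 25.5 FPKM at 48 h, and changes of -1.08 ± 0.28 (adjusted p = 0.0489) and -0.98 ± 0.28 (adjusted p = 0.0565). FARSB stood at 32.2 and 41.3 FPKM in DMSO, 15.8 and 19.0 FPKM at 24 h, and 16.5 and 18.0 FPKM at 48 h (adjusted p = 0.0156 and 0.0126). CARS had smaller differences, from 28.2 and 25.4 FPKM to 21.8 and 19.1 FPKM at 24 h and 21.5 and 19.9 FPKM at 48 h, with changes of -0.37 ± 0.13 (adjusted p = 0.107) and -0.36 ± 0.13 (adjusted p = 0.109).

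QARS and WARS were the cytosolic members of MMACSF whose libraries of 24 h lay above DMSO. QARS stood at 118 and 109.9 FPKM in DMSO, 149 and 140.2 FPKM at 24 h, and 176 and 157 FPKM at 48 h (0.34 ± 0.12 and 0.54 ± 0.12, adjusted p = 0.095 and 0.0246). WARS stood at 122 and 128 FPKM in DMSO, 159.8 and 162 FPKM at 24 h, and 85.9 and 88.0 FPKM at 48 h. It was thus above DMSO at 24 h (0.36 ± 0.10, adjusted p = 0.0579) and under it at 48 h (-0.52 ± 0.10, adjusted p = 0.0181), past the threshold at neither time. HARS stood at 56.7 and 50.0 FPKM in DMSO and at 37.3 to 39.2 FPKM in drug, EPRS at 36.8 and 45.0 FPKM and at 29.98 to 35.6 FPKM, and LARS at 41.9 and 51.5 FPKM and at 28.8 to 34.9 FPKM. The remaining cytosolic members spanned 39.2 to 49.7 FPKM for DARS, 29.0 to 53.1 FPKM for NARS, 33.3 to 62.4 FPKM for RARS, 85.8 to 105 FPKM for SARS, and 65.9 to 133 FPKM for TARS over the 6 libraries. Both libraries lay under both of DMSO for 15 of 19 cytosolic members at 24 h and 16 of 19 at 48 h, against 25.8% and 28.8% of all genes. They lay above for 2 and 1, against 34% and 35.7%.

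MARS2 was the mitochondrial member that fell in MMACSF, at 48 h. It stood at 6.17 and 6.10 FPKM in DMSO, 3.19 and 2.79 FPKM at 24 h, and 2.26 and 2.44 FPKM at 48 h, with a change of -0.84 ± 0.14 at 24 h (adjusted p = 0.0157) and a fall of 1.09 ± 0.14 at 48 h (adjusted p = 0.00659). With no expression minimum this call was lost (0.0129). At 24 h 0 of 15 mitochondrial members passed, with an unadjusted p under 0.05 for 7, and none of the 15 was called higher at either time. Of all 12599 genes 2561 had an adjusted p under 0.05 at 24 h, which is a stricter cutoff. With the replicate block 4 and 5 of the 15 were called at 24 and 48 h. AARS2 stood at 16.7 and 14.9 FPKM in DMSO and at 10.6 to 11.6 FPKM in drug (adjusted p = 0.0663 and 0.0528). CARS2 stood at 31.7 and 26.0 FPKM in DMSO and at 14.4 to 19.2 FPKM in drug (-0.75 ± 0.20 and -0.80 ± 0.20, adjusted p = 0.0544 and 0.0397). LARS2 stood at 15.3 and 15.8 FPKM in DMSO, 10.1 and 11.7 FPKM at 24 h, and 9.10 and 8.30 FPKM at 48 h (adjusted p = 0.0617 and 0.0145). PARS2 was highest in fold change at 48 h, from 4.51 and 4.13 FPKM in DMSO to 6.13 and 5.91 FPKM (0.40 ± 0.15, adjusted p = 0.116). WARS2, at 6.19 and 6.30 FPKM in DMSO and 6.55 to 7.13 FPKM in drug, and HARS2, at 18.5 and 20.2 FPKM and 17.0 to 21.9 FPKM, did not pass (adjusted p from 0.411 to 0.998). IARS2 stood at 64.3 and 74.6 FPKM in DMSO and at 50.8 to 55.9 FPKM in drug, YARS2 at 7.84 and 9.46 FPKM and at 6.65 to 7.998 FPKM, and FARS2 at 6.68 and 7.23 FPKM and at 6.28 to 7.36 FPKM. The remaining mitochondrial members spanned 8.19 to 14.6 FPKM for EARS2, 20.0 to 43.0 FPKM for NARS2, 12.1 to 14.0 FPKM for RARS2, 11.0 to 17.9 FPKM for SARS2, and 12.8 to 17.4 FPKM for TARS2. Both libraries lay under both of DMSO for 8 of 15 at 24 h and 10 of 15 at 48 h, against 25.8% and 28.8% of all genes, and above for 1 and 2, against 34% and 35.7%. With any 1 of the 4 compared libraries left out, 0 members of either class passed in MMACSF, and those called with all libraries had adjusted p from 0.0378 to 0.0482 at 24 h and from 0.0271 to 0.0626 at 48 h.

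The class medians of MMACSF lay further apart than the class sums. The cytosolic median log2 fold change was -0.55 at 24 h and at 48 h, the mitochondrial one -0.21 and -0.29, and that of all genes tested 0.07 and 0.06. The cytosolic median lay under the mitochondrial one by 0.34 and by 0.26, and with a minimum of 10 FPKM by 0.17 and 0.12. The cytosolic minus the mitochondrial median was -0.164 at 24 h without replicate 1 of 24 h. At 48 h it was -0.17 without replicate 1 of 48 h and -0.442 without replicate 2. Summed cytosolic mRNA went from 1337 and 1372 FPKM in DMSO to 1045 and 1066 FPKM at 24 h and 997 and 979 FPKM at 48 h, and mitochondrial mRNA from 277 and 287 FPKM to 217 and 221 FPKM and 211 and 209.9 FPKM. The ratio of the sums stayed between 4.66 and 4.83 in all 6 libraries. The sums weigh abundant members most. Among those of this line, QARS lay above DMSO at both times, and WARS above it at 24 h but under it at 48 h. Their part in the ratio was not tested.

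**Figure D3:**
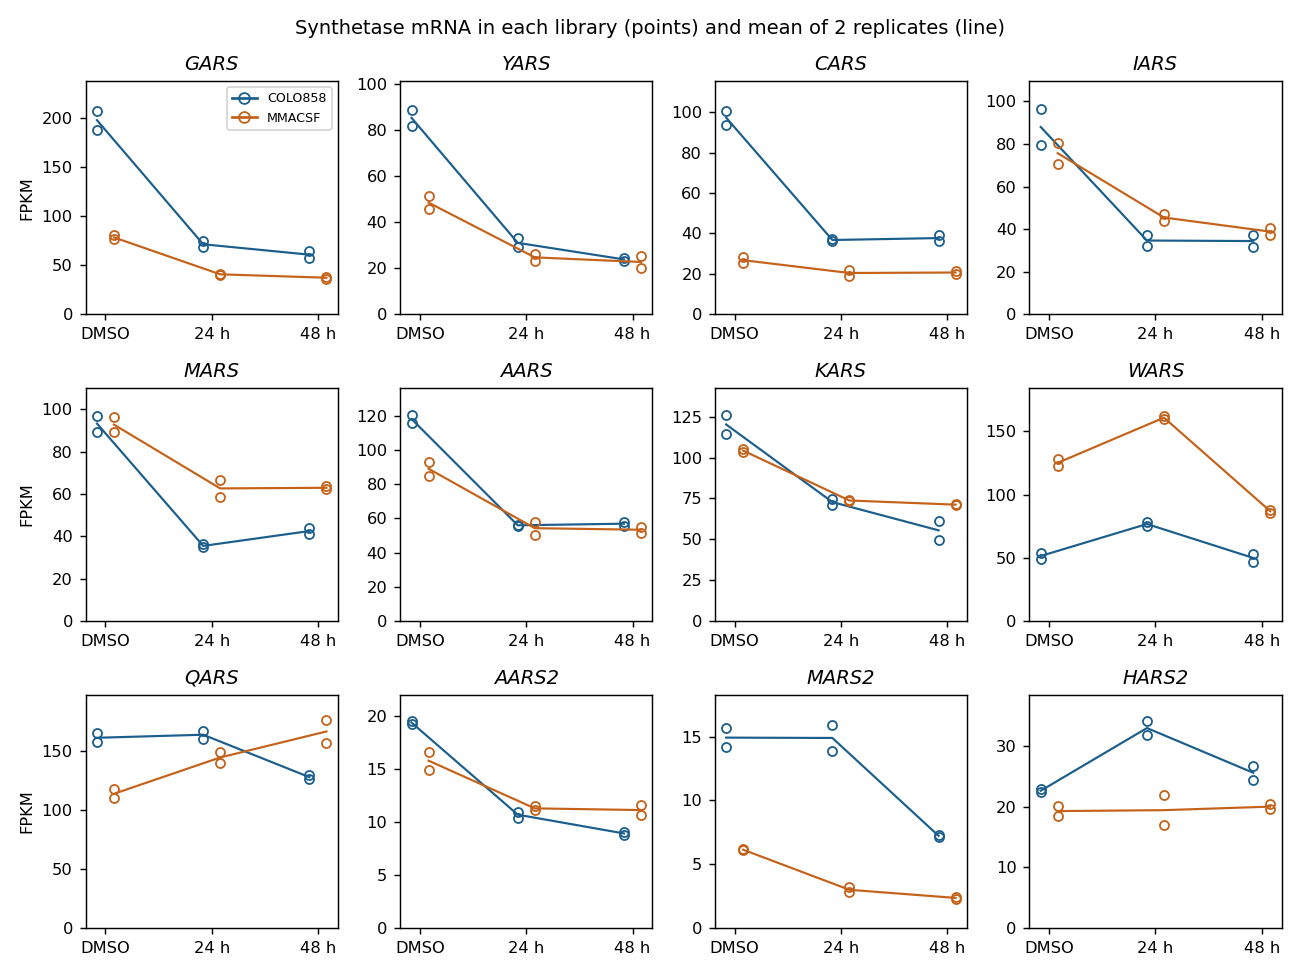
FPKM (vertical axes, from 0) of 12 synthetases in DMSO and after 24 and 48 h in vemurafenib, with each library as a point and the mean of 2 libraries as a line, for COLO858 (blue) and MMACSF (orange). GARS of COLO858 goes from 188 and 208 FPKM to 57.3 and 64.4 FPKM at 48 h, WARS peaks at 24 h in both lines, and QARS of MMACSF goes from 118 and 109.9 FPKM to 176 and 157 FPKM.

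The response of each member in COLO858 was compared with its response in MMACSF as an interaction in a limma model over the 12 libraries and 13595 genes, each change taken against DMSO of its own line. Without the replicate block 1 of 34 members differed at 24 h and 2 did at 48 h, with the lower change in COLO858 in each case. Of all genes 1.93% at 24 h and 3.3% at 48 h had a lower change in COLO858, and 1.78% and 4.19% a higher one. CARS differed by -1.01 ± 0.16 at 24 h (adjusted p = 0.00615) and by -0.99 ± 0.16 at 48 h (adjusted p = 0.00385). QARS differed by -0.88 ± 0.13 at 48 h (adjusted p = 0.0032), with its libraries under DMSO in COLO858 and above it in MMACSF. Under median-ratio rescaling all 3 calls were lost, with adjusted p of 0.0251 and 0.0225 for CARS and 0.0211 for QARS and differences of -0.99, -0.92 and -0.81. With any 1 of the 8 libraries left out CARS did not pass at either time, and QARS passed without replicate 2 of MMACSF at 48 h and in none of the other cases.

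Of the members called in COLO858 alone, CARS differed between the lines without the replicate block, and MARS, KARS, AARS and AARS2 were not shown to. With the block AARS, CARS, GARS, IARS, MARS, NARS, LARS2 and MARS2 were called at 24 h. At 48 h it called AARS, CARS, DARS, EPRS, GARS, IARS, KARS, QARS, SARS, WARS, AARS2, CARS2 and PARS2. Of all 13595 genes the block called 2396 and 3434. The adjusted p below are without it. The estimated difference was -0.81 ± 0.14 for MARS at 24 h (adjusted p = 0.0117), -0.56 ± 0.16 for KARS at 48 h (adjusted p = 0.0476), -0.36 ± 0.14 and -0.31 ± 0.14 for AARS (adjusted p = 0.188 and 0.199) and -0.57 ± 0.14 for AARS2 at 48 h (adjusted p = 0.0316). GARS, YARS and IARS were called in both lines at 48 h. Their estimates there were -0.63 ± 0.14 (adjusted p = 0.0206), -0.73 ± 0.20 (adjusted p = 0.0415) and -0.38 ± 0.20 (adjusted p = 0.275), none past the threshold. For MARS2 the estimate had the other sign, 0.84 ± 0.16 at 24 h (adjusted p = 0.0175) and 0.14 ± 0.16 at 48 h (adjusted p = 0.678), and did not pass either. LARS2 had 0.63 ± 0.17 at 24 h (adjusted p = 0.0566).

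**Figure D4:**
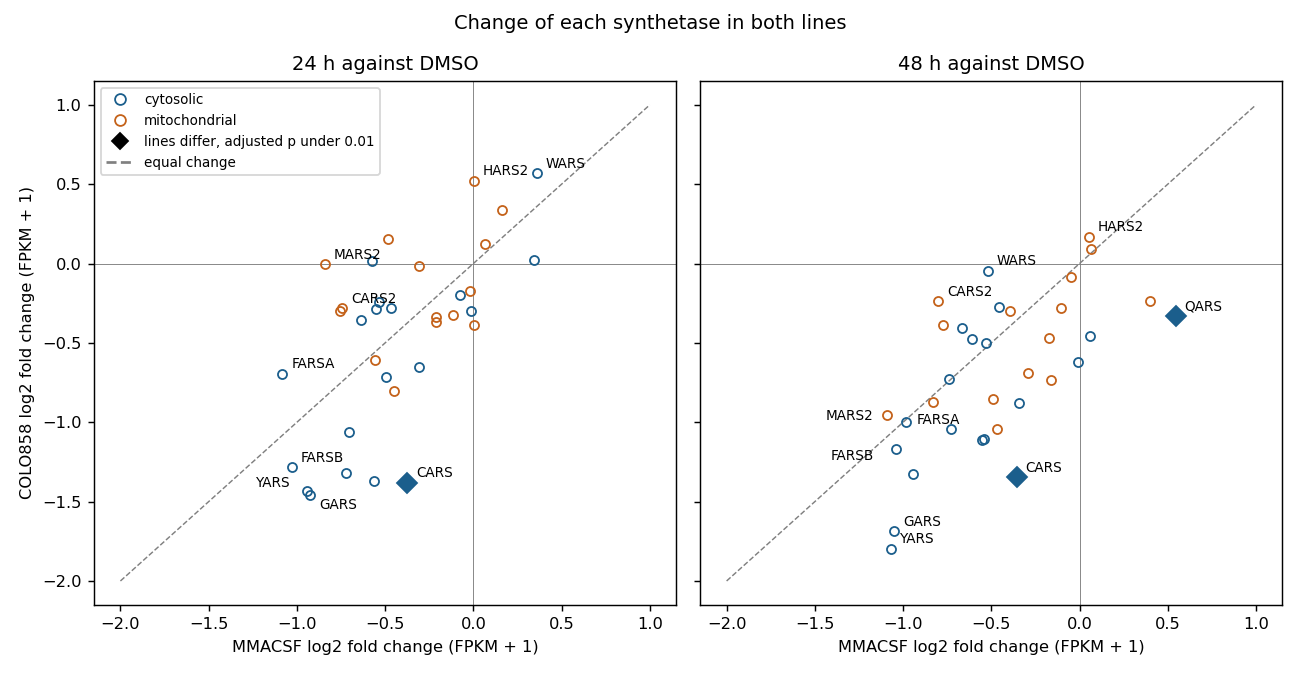
Log2 fold change against DMSO of each tested synthetase in MMACSF (horizontal axis) and COLO858 (vertical axis) at 24 h (left) and 48 h (right), on the log2(FPKM + 1) scale, for cytosolic (blue) and mitochondrial (orange) members, with the dashed line at equal change. Filled diamonds mark CARS at both times and QARS at 48 h, where the lines differed with an adjusted p under 0.01, and all lie under the dashed line.

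Between 24 and 48 h in drug 0 of 34 members passed in either line, where 1.38% of all genes did in COLO858 and 0.222% in MMACSF. Limma gave an unadjusted p under 0.05 for 9 members in COLO858, all lower at 48 h, and for 1 in MMACSF. By the stricter cutoff of an adjusted p under 0.05, 809 of all 12696 genes passed in COLO858 and 53 of 12599 in MMACSF. With the replicate block 4 cytosolic and 3 mitochondrial members were called in COLO858, as were 2280 of all genes, and WARS was in MMACSF. Without the block MARS2 of COLO858 came nearest (-0.95 ± 0.14, adjusted p = 0.0269). WARS followed with -0.61 ± 0.13 in COLO858 (adjusted p = 0.0621) and -0.88 ± 0.10 in MMACSF (adjusted p = 0.0445). The highest changes were those of MARS in COLO858 (43.7 and 41.3 FPKM at 48 h against 34.8 and 36.2 FPKM at 24 h) and of PARS2 in MMACSF (6.13 and 5.91 FPKM against 5.07 and 4.11 FPKM).

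Cytosolic and mitochondrial enzymes for the same amino acid, with symbols that differ by the 2 alone, could be set side by side for 12 amino acids. In COLO858 the cytosolic enzyme had the lower fold change in 9 of 12 at 24 h and 10 of 12 at 48 h, and in MMACSF in 7 of 12 at both times. These counts include near ties in COLO858. The cytosolic minus the mitochondrial change was -0.026 for threonine and 0.072 for serine at 24 h. At 48 h it was -0.0005 for alanine, -0.037 for threonine and 0.016 for serine. The gap was widest for methionine at 24 h in COLO858, where MARS fell by 1.37 and MARS2 changed by -0.004. By 48 h both had fallen and their changes of -1.11 and -0.95 lay 0.16 apart. For isoleucine the gap remained, with -1.33 for IARS and -0.30 for IARS2 at 48 h, and likewise for cysteine (-1.34 for CARS, -0.24 for CARS2) and tyrosine (-1.80 for YARS, -0.73 for YARS2). For alanine both enzymes fell by 1.04 at 48 h. Asparagine had the reverse order, with -0.48 for NARS and -0.88 for NARS2 (adjusted p = 0.236 and 0.0487). In MMACSF at 48 h methionine and cysteine also had the reverse order, with -0.55 for MARS and -1.09 for MARS2, and -0.36 for CARS and -0.80 for CARS2.

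The 7 cytosolic members with the TGATGNAA letters shown above included 5 of the 6 called at 24 h in COLO858 (AARS, CARS, GARS, IARS and MARS), and YARS, the sixth, had no window. Their median log2 fold change in COLO858 was -1.32 at 24 h and -1.11 at 48 h, with 5 of 7 called lower at both times. Over all 244 genes tested in COLO858 whose window held the letters, the medians were 0.06 and -0.04, with 7.79% and 6.97% called lower, against 5.82% and 4.67% of 8590 genes whose window lacked them. The 9 cytosolic members whose window lacked the letters had medians of -0.30 and -0.45, with 0 and 1 called. NARS and TARS, which hold the letters, were not called, with 0.02 ± 0.26 and -0.35 ± 0.21 at 24 h (adjusted p = 0.964 and 0.275). With the replicate block, EPRS, FARSA, FARSB, HARS, KARS, SARS and WARS, which lack the letters, and TARS were also called at 24 h, WARS as higher. At 48 h the block called all cytosolic members with the letters and all without them but WARS. It called 5719 and 5549 of all 12696 genes. The split of calls by the letters thus depended on leaving the block out. In MMACSF the medians were -0.64 and -0.73 with the letters, with 1 and 2 called, and -0.47 and -0.52 without, with 0 and 0. Over all 246 genes tested there with the letters 3.66% and 6.91% were called lower, against 3.65% and 5.82% of 8472 without. The letters CACGTG, an E-box, were found for IARS among 16 cytosolic members and for CARS2, EARS2 and MARS2 among 14 mitochondrial members, against 8.77% of all genes. A list of 12 cytosolic synthetases usually named as ATF4 targets shares members with the first set. Of these 6 were called lower at each time in COLO858 and 1 and 3 in MMACSF, and of the 7 other tested cytosolic members 0 and 1 in COLO858 and 0 and 0 in MMACSF.

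ATF4 mRNA itself moved in opposite directions in the lines. In COLO858 it went from 461 and 485 FPKM in DMSO to 227 and 248 FPKM at 24 h and 222 and 229.7 FPKM at 48 h, falling by 0.99 ± 0.11 (adjusted p = 0.00415) and by 1.06 ± 0.11 (adjusted p = 0.00383). In MMACSF it stood at 242 and 220.4 FPKM in DMSO and 279 and 279.6 FPKM at 24 h (adjusted p = 0.122), and it rose to 439.4 and 439.1 FPKM at 48 h (0.92 ± 0.10, adjusted p = 0.00447). The lines differed by -1.27 ± 0.12 at 24 h (adjusted p = 0.000879) and -1.99 ± 0.12 at 48 h (adjusted p = 4.2e-05). GARS, IARS, YARS and MARS2 fell in MMACSF at 48 h, where ATF4 mRNA was higher than in DMSO. The data hold no ATF4 protein, and a part of ATF4 in the changes of either line was not tested. Of the 23 tested amino acid response genes other than synthetases, 9 fell and 1 rose at 24 h in COLO858, and 10 fell and 1 rose at 48 h, with medians of -1.11 and -1.52. In MMACSF 6 fell at 24 h, and 5 fell and 1 rose at 48 h, with medians of -0.46 and -0.53. MTHFD2, an enzyme of mitochondrial folate metabolism, had the deepest fall of the list at 48 h in both lines. It fell by 2.68 ± 0.27 in COLO858 (adjusted p = 0.00356) and fell by 1.88 ± 0.20 in MMACSF (adjusted p = 0.00418). ATF3, a stress-induced transcription factor, rose by 2.72 ± 0.22 in COLO858 at 48 h (adjusted p = 0.00182), from 2.56 and 3.77 FPKM to 24.2 and 28.3 FPKM.

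Of the 8 synthetases of the multisynthetase complex (EPRS, IARS, LARS, MARS, QARS, RARS, KARS and DARS), 7 had a fold change below 0 in COLO858 after 24 h and 8 after 48 h, as had 7 in MMACSF each time. Both libraries lay under both of DMSO for 4 and 7 in COLO858, against 29% and 31.4% of all genes. In MMACSF they did for 6 and 6, against 25.8% and 28.8%. In COLO858 IARS and MARS were called at 24 h and IARS, MARS and KARS at 48 h, with list medians of -0.47 and -0.75, and in MMACSF 0 and 1 (IARS) were, with medians of -0.51 and -0.54. Of all genes tested, 5.71% and 4.73% were called lower in COLO858 and 3.6% and 5.41% in MMACSF. QARS and DARS of MMACSF had changes of 0.54 ± 0.12 and -0.01 ± 0.17 at 48 h. Of the 3 scaffold proteins 0 passed in either line, with an unadjusted limma p under 0.05 for 2 at each time. Over all genes, 3275 and 3298 of 12696 in COLO858 and 2561 and 3038 of 12599 in MMACSF had an adjusted p under 0.05. That cutoff is stricter, so the counts are not like for like. EEF1E1 had the largest difference at 48 h, with 30.5 and 36.6 FPKM in DMSO and 14.6 and 20.5 FPKM at 48 h in COLO858 (adjusted p = 0.0473) and 24.0 and 36.2 against 9.81 and 11.8 FPKM in MMACSF (adjusted p = 0.0197).

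Downstream of charging, 1 and 3 of 7 cytosolic elongation factors fell in COLO858 at 24 and 48 h and 1 and 1 in MMACSF. Over all genes tested, 5.71% and 4.73% were called lower in COLO858 and 3.6% and 5.41% in MMACSF. EIF5A, which helps ribosomes through difficult peptide bonds, fell by 1.12 ± 0.10 at 48 h in COLO858 (adjusted p = 0.0028) and by 1.59 ± 0.10 in MMACSF (adjusted p = 0.000854). EEF1A2, an elongation factor that brings charged tRNA to the ribosome, had the largest change of the list in COLO858 at 48 h without passing, from 53.8 and 31.3 FPKM to 11.4 and 6.24 FPKM (adjusted p = 0.023). Of 14 mitochondrial translation factors and 16 genes of tRNA maturation and export, 0 passed in either line at either time. The mitochondrial factors had unadjusted p under 0.05 for 2 and 3 in COLO858 and 1 and 4 in MMACSF at 24 and 48 h, and the tRNA genes for 1 and 4, and 6 and 6. Over all genes, 3275 and 3298 of 12696 in COLO858 and 2561 and 3038 of 12599 in MMACSF passed the stricter adjusted p under 0.05. Largest in those lists at 48 h were MRRF, a ribosome recycling factor (-0.71 ± 0.14, adjusted p = 0.0206), and XPOT, the tRNA exporter (-1.33 ± 0.22, adjusted p = 0.0133), in COLO858, and GFM1, an elongation factor (-0.57 ± 0.19, adjusted p = 0.0781), and RPP30, a ribonuclease P subunit (-0.80 ± 0.21, adjusted p = 0.0444), in MMACSF.

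Markers of drug action and growth state also changed over these times, and their part in the results above was not tested. Of 8 MAPK output genes 6 fell at both times in both lines. Over all genes tested, 5.71% and 4.73% were called lower in COLO858 and 3.6% and 5.41% in MMACSF. DUSP6, a phosphatase induced by ERK, went from 109.7 and 124 FPKM to 45.1 and 38.7 FPKM at 24 h and 60.0 and 61.0 FPKM at 48 h in COLO858, and from 40.4 and 40.9 FPKM to 11.7 and 12.7 FPKM and 10.8 and 11.1 FPKM in MMACSF. ETV4, a transcription factor of the same output, changed most, by -5.55 ± 0.20 in COLO858 and -5.17 ± 0.18 in MMACSF at 48 h (adjusted p = 0.000262 and 0.000345). Of 8 cell cycle genes 8 fell at 24 h in both lines and 8 at 48 h in MMACSF, but 0 passed at 48 h in COLO858, where limma gave an unadjusted p under 0.05 for 3. There 3298 of all 12696 genes had an adjusted p under 0.05, which is a stricter cutoff. The cell cycle median of COLO858 was -2.65 at 24 h and -0.59 at 48 h, while the cytosolic synthetase median was -0.65 and -0.88. From 24 to 48 h in that line 5 of the 8 cell cycle genes were called higher. Of the 19 cytosolic synthetases 0 were called in either direction, as were 1.38% of all genes. CCNB1, a cyclin of mitosis, stood at 73.6 and 97.4 FPKM in DMSO, 10.2 and 13.8 FPKM at 24 h, and 32.6 and 43.7 FPKM at 48 h in COLO858, and TOP2A, a topoisomerase of dividing cells, fell by 5.10 ± 0.21 at 48 h in MMACSF (adjusted p = 0.000376). The summed FPKM of the 8 melanocyte lineage markers ranged from 702 to 4158 in COLO858 and from 11160 to 17555 in MMACSF over the libraries. Of the 7 tested in COLO858, 4 rose at each time, and of the 8 in MMACSF 1 and 3 rose. Over all genes tested, 4.11% and 4.74% were called higher in COLO858 and 2.22% and 3.42% in MMACSF. S100B, a calcium-binding protein of the lineage, rose by 3.16 ± 0.10 in COLO858 at 48 h (adjusted p = 0.000262), and DCT, a pigment enzyme, by 1.17 ± 0.13 in MMACSF (adjusted p = 0.00442).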

How the data were processed

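RNA of COLO858 and MMACSF was made into TruSeq stranded mRNA libraries with ERCC spike-in and sequenced as single reads. TopHat, with default settings and hg19 as the genome, and Cuffdiff were run by the authors on Galaxy, per the study's methods and the submitters' processing notes. Program versions, gene annotation, the strand setting of Cuffdiff and the scaling between libraries are not given in the sources used here. The deposited values were taken as FPKM, normalized by the authors, with 1 table per line. Reads cannot be recovered from them, so depth and the precision it sets are unknown. All 12 columns were used.

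Each line was fitted with limma 3.58.1 in R 4.3.3, with 1 coefficient for each of its 3 groups on log2(FPKM + 1), empirical Bayes moderation and a mean-variance trend, over genes that averaged 1 FPKM or more in some group of that line. Tests were two-sided, the Benjamini-Hochberg adjustment covered every gene tested, and the threshold of 0.01 is that of the study's methods. Lines were compared by an interaction over the 12 libraries. The procedure was tested on simulated data. Positions are from GENCODE v44 lifted to GRCh37, by current or older symbol, and sequences from RefSeq on GRCh38.p14, with the shares of all tested genes by promoter letters added after the members' values were seen. Replicate plates were seeded apart, but the labels say no more of their independence, so p-values measure the spread between these samples.

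Members and lists were chosen with earlier results of these data known. Members are named with all values where they passed in any comparison, had the largest rise or fall of their class, or charge the same amino acid as such a member. Of each other list ATF4, DUSP6 and the gene with the largest change at 48 h in each line are named, with DDIT3 added for its overlap with MARS, and further members that are singled out were chosen after their values were seen. Alternatives were 0.1 FPKM added, no minimum or a minimum of 10 FPKM, the replicate block, median-ratio rescaling, no trend, a threshold of 0.05 and leaving out each library in turn.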

Additional observations from a re-analysis of the deposited data

Results flagged for a closer look

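The change against DMSO differed between the lines, by the interaction test of limma, for CARS at both times and for QARS at 48 h. CARS changed in COLO858 by -1.38 and -1.34 at 24 and 48 h on the log2(FPKM + 1) scale and in MMACSF by -0.37 and -0.36, a difference of -1.01 ± 0.16 (SE, adjusted p = 0.00615) and -0.99 ± 0.16 (adjusted p = 0.00385). All 4 drug-treated libraries of COLO858, at 36.1 to 39.4 FPKM, lay under both DMSO libraries, at 93.8 and 100.9 FPKM. QARS changed by -0.33 in COLO858 and 0.54 in MMACSF at 48 h, a difference of -0.88 ± 0.13 (adjusted p = 0.0032). Its 2 libraries of 48 h lay under both of DMSO in COLO858 and above both in MMACSF. All 3 calls were lost under median-ratio rescaling. With 2 libraries per group no library could be examined for standing apart within its group.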

How the results depend on the processing

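Of 468 alternative values for 42 combinations of a named member and a comparison, 335 kept direction and side of the threshold, 112 lost the call, 19 gained it and 2 turned. The 2 were WARS at 48 h in COLO858 without DMSO replicate 2 (0.012) and without 48 h replicate 1 (0.042), in a range from -0.130 to 0.042 over the libraries left out. In the order COLO858 24 h, 48 h and 48 h against 24 h, MMACSF likewise, and the line difference at 24 and 48 h, the counts of members called were 6, 9, 0, 1, 4, 0, 1 and 2. Over all genes, 12696 in COLO858, 12599 in MMACSF and 13595 for the line difference, the calls were 1247, 1202, 175, 734, 1113, 28, 505 and 1017. At a threshold of 0.05 the members called were 12, 16, 1, 12, 17, 1, 3 and 9. Over all genes that threshold gave 3275, 3298, 809, 2561, 3038, 53, 1227 and 2124. With the replicate block the members called were 19, 27, 7, 19, 21, 1, 8 and 13. Over all genes the block gave 5719, 5549, 2280, 3284, 3790, 32, 2396 and 3434. The labels do not say what a replicate number shares, so the samples were not taken as paired. Deviations of same-numbered samples correlated at 0.196 to 0.211 in COLO858 and 0.0628 to 0.113 in MMACSF over genes. For the synthetases alone these correlations were far higher. The lowest was 0.822 and the highest 0.923 among the COLO858 groups, while MMACSF groups gave values between 0.663 and 0.849. The fit without the block leaves such shared deviations of the members in its spread. Replicate 2 lay above replicate 1 in all 6 groups for 13 of 34 members and below it for 3. Leaving out 1 library gave 0 calls in every comparison, with 0 to 1 for the line difference at 48 h. Median-ratio rescaling gave 3 members for MMACSF at 24 h, and 0 and 1 for the line differences, and no minimum gave 2 for MMACSF at 48 h and 2 for the line difference at 24 h. The cytosolic minus mitochondrial median with a minimum of 10 FPKM was -0.298 for COLO858 at 48 h, 0.087 for 48 h against 24 h, and -0.170 and -0.120 for MMACSF at 24 and 48 h. Leaving out 1 library it ran from -0.377 to -0.306, from -0.488 to -0.284 and from 0.046 to 0.134 in COLO858, and from -0.405 to -0.164, from -0.442 to -0.170 and from -0.034 to 0.046 in MMACSF, in the order of comparisons above. The last turned without 24 h replicate 1. The causes were not tested. Read depth, which would set what a low level can show, is unknown.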

Other observations

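Some members differed between replicates 1 and 2 in the same direction in all 6 groups. The median log2 difference of replicate 2 from replicate 1 was 0.36 for NARS, 0.35 for FARSB, 0.33 for LARS and 0.31 for DARS, and -0.50 for SARS2, -0.45 for FARSA and -0.11 for CARS. The subunits FARSA and FARSB of the phenylalanine enzyme lay on opposite sides in every group.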
